A study of Mus musculus with 6 samples.

Results

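The insulin receptor signalling genes described here are 10 rows of a table of liver gene expression, out of 25690 genes in all. They were taken by symbol: the receptor gene Insr, its substrates Irs1 and Irs2, the receptor-binding adaptor Grb14, the phosphoinositide 3-kinase (PI3K) subunit genes Pik3r1 and Pik3ca, the kinase genes Pdpk1, Akt1 and Akt2, and the transcription factor gene Foxo3. Sequenced RNA of hepatic tissue came from mice labelled as hepatic FTO knockout (FTO knockout, 3 libraries) and from wild type control mice (3 libraries). The FTO protein is a demethylase that acts on N6-methyladenosine in RNA. The groups are set apart by this genotype label, and the FTO protein itself was not measured here. The Cre driver or other means of deletion, the strain, sex, age and feeding state are not given in the sources used here, and feeding changes insulin signalling in liver. Whether each library is a separate animal is also not stated there, and p-values then measure only a spread between samples that may be technical.

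Insulin binds a receptor tyrosine kinase on hepatocytes, which phosphorylates the substrate proteins IRS1 and IRS2. These recruit PI3K, whose lipid product brings the kinases PDK1 and AKT to the membrane, and active AKT phosphorylates the FOXO transcription factors and keeps them out of the nucleus. In liver this pathway lowers glucose output and raises lipid synthesis. Transcription of Irs2 is itself held down by insulin and raised in fasting, in part through FOXO proteins. RNA levels do not measure the phosphorylation on which the pathway runs.

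The values are FPKM (fragments per kilobase of transcript, scaled to the mapped fragments of the library), so levels of different genes can be set side by side per length. Depths inferred from the table were 34140000 to 42530000 fragments in the knockout libraries and 34690000 to 36550000 in the wild type libraries. These are rough estimates: only values between 25000000 and 50000000 were kept, so each could only fall in that range. Fto, the targeted gene, averaged 2.76 ± 1.02 FPKM in knockout and 6.36 ± 0.324 FPKM in wild type (SD, n = 3 each; adjusted p 0.0386 in limma), and each knockout library lay below each wild type library. Its call was lost without any 1 library other than knockout replicate 2 (adjusted p 0.0636 to 0.147) and with no filter on low values (0.0975). The lowest value of 7 hepatocyte markers other than Alb in any library was 64.6 FPKM (Alb itself was listed at 0 in knockout replicate 3 and wild type replicate 1), and the pancreatic genes Ins1, Ins2, Gcg and Cpa1 were listed at 0 in all of them. All 9 Kupffer cell markers had higher means in knockout, with summed levels of 141 to 244 FPKM in knockout and 53.6 to 174 FPKM in wild type. Summed over the 7 hepatocyte markers other than Alb, levels were 20052 to 21246 FPKM in knockout and 14943 to 17842 FPKM in wild type. Most of each sum came from Ttr, Apoa1 and Serpina1a, and of all 8 hepatocyte markers 5 had a higher mean in knockout. Tat was at 275 to 466 FPKM in knockout and 410 to 538 FPKM in wild type. Asgr1 was at 363 to 441 FPKM in knockout and 374 to 539 FPKM in wild type. These 5 genes were named after their values were seen. The part of either cell type in the results was not tested. In such tissue, fewer cells of a type and less RNA per cell cannot be told apart.

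Irs2 was higher in every knockout library, at 2.28 times the wild type mean. Grb14 and Akt1 were also higher in every knockout library, and Foxo3 and Pik3r1 were lower in every one, but by 1.27 to 1.40-fold. For Insr, Irs1, Pik3ca, Pdpk1 and Akt2 the groups overlapped. Limma was run on log2(FPKM + 1) for genes whose 6-library mean reached 1 FPKM, and the call threshold was 0.05 for the p adjusted by the Benjamini-Hochberg method. Of the 10 genes, 8 reached that mean and 0 of these 8 were called; unadjusted p-values under 0.05 were found for 2 that were higher and 2 that were lower. Among all 10405 tested genes 2.76% were called and 18.7% had an unadjusted p under 0.05. The groups did not overlap for 4 of the 8, against 24.5% of all tested genes. Irs1 and Irs2 fell under the minimum and were tested only when it was lowered or dropped. The fit with a minimum of 0.1 FPKM tested 14307 genes and called 2.61% of them, 1.11% as higher and 1.5% as lower, and Irs2 was the 1 member it called. In it the groups did not overlap for 5 of the 10 members and for 23.8% of all tested genes.

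**Figure D1:**
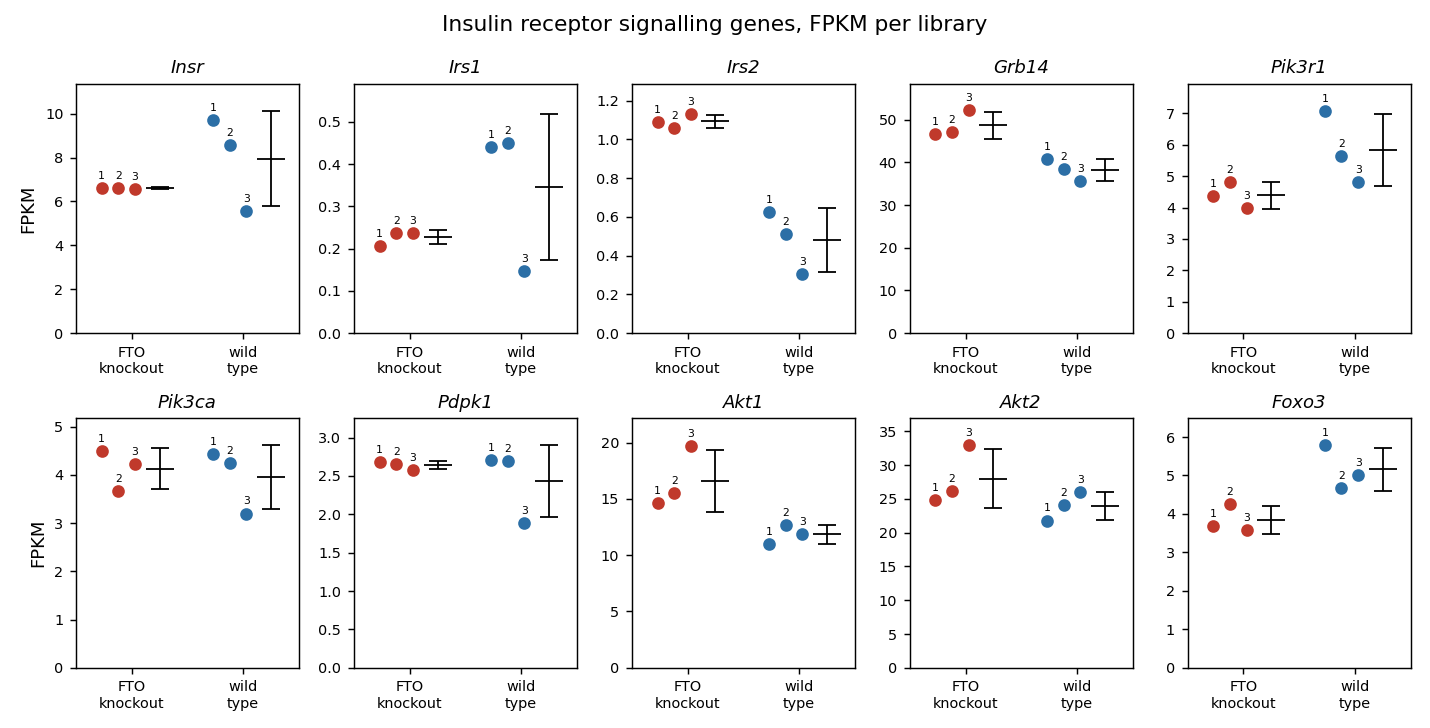
FPKM (vertical axes, linear, from 0) of the 10 insulin receptor signalling genes in FTO knockout and wild type libraries; numbered points are replicates, and the bar beside them gives the mean and SD of 3 libraries. Irs2 sits between 1.06 and 1.13 FPKM in knockout and between 0.303 and 0.627 FPKM in wild type, and the wild type library labelled 3 is low for Insr, Irs1, Pik3ca and Pdpk1.

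The order of the levels was nearly the same in both groups. In knockout, Grb14 was first with a mean of 48.6 FPKM, and Akt2 (28 FPKM), Akt1 (16.6 FPKM) and Insr (6.61 FPKM) followed without overlap between neighbours. Pik3r1, Pik3ca and Foxo3, at 4.38, 4.13 and 3.84 FPKM in knockout, overlapped one another. Below them in knockout came Pdpk1 at 2.64 FPKM, Irs2 at 1.1 FPKM and Irs1 at 0.227 FPKM, again without overlap. In wild type Grb14 was also first (38.3 FPKM), then Akt2 (24 FPKM) and Akt1 (11.9 FPKM), and the ranges of Insr and Pik3r1, of Pik3r1 and Foxo3, and of Irs2 and Irs1 overlapped. The substrate genes were thus the least abundant of the 10 in both groups, and the adaptor gene Grb14 the most abundant.

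Irs2 encodes the substrate through which much of the insulin signal in hepatocytes passes, and it lies on chromosome 8 (10984681 to 11008458, minus strand, mm10; ENSMUSG00000038894). It had 1.09, 1.06 and 1.13 FPKM in knockout replicates 1, 2 and 3, against 0.627, 0.513 and 0.303 FPKM in wild type replicates 1, 2 and 3. The knockout values lay close together and above all wild type values, which were spread more widely. The means were 1.1 ± 0.0344 FPKM in knockout and 0.481 ± 0.164 FPKM in wild type (SD, n = 3 each). With its single annotated transcript of 6323 bases, these levels correspond to about 230 to 305 fragments per library in knockout and about 67 to 137 in wild type at the inferred depths. Such fragment numbers are as rough as those depths. The annotated gene 9530052E02Rik overlaps Irs2 on the opposite strand (chromosome 8, 11007850 to 11054541), and was at 0.0596 to 0.262 FPKM in knockout and 0.0363 to 0.184 FPKM in wild type; without strand its reads and those of Irs2 cannot be told apart where they overlap. In the fit with a minimum of 0.1 FPKM the log2 change of Irs2 was 0.51 (SE 0.10, 95% interval 0.28 to 0.73, adjusted p 0.0441 in limma). This call was lost with no filter on low values (adjusted p 0.0747) and with a pseudocount of 0.1 in place of 1, which raised the log2 change to 1.08 (adjusted p 0.0644). It was also lost without knockout replicates 1, 2 or 3 (adjusted p 0.130, 0.0975 and 0.156 in limma) or wild type replicates 2 or 3 (0.145 and 0.0531), and kept without wild type replicate 1 (0.0412). The direction of Irs2 was the same in all 9 of these settings, with log2 changes of 0.42 to 1.08.

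Irs1, the other main substrate gene (ENSMUSG00000055980, chromosome 1, 82233101 to 82291416, minus strand), had 0.207, 0.238 and 0.237 FPKM in knockout replicates 1, 2 and 3, against 0.441, 0.450 and 0.147 FPKM in wild type replicates 1, 2 and 3. Its knockout values lay between wild type replicate 3 and the other wild type libraries. The means were 0.227 ± 0.0177 FPKM in knockout and 0.346 ± 0.172 FPKM in wild type (SD, n = 3 each), with a log2 change of -0.12 (95% interval -0.35 to 0.10, adjusted p 0.560 in limma with a minimum of 0.1 FPKM). Without wild type replicate 3 the log2 change was -0.24 (adjusted p 0.0886). The annotated gene Gm9747 covers the 3′ end of Irs1 on the opposite strand (chromosome 1, 82233112 to 82235933). Gm9747 had 3.18, 1.63 and 1.62 FPKM in knockout replicates 1, 2 and 3, against 5.30, 4.11 and 0.874 FPKM in wild type replicates 1, 2 and 3. It is not given whether the counting used strand, and without strand the reads of Irs1 and Gm9747 cannot be told apart, so the level of Irs1 is uncertain.

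Because Irs2 is the member with the clearest difference and Irs1 its closest relative, the 250 bases before their RefSeq starts (GRCm38.p6) are shown, each on the minus strand. The Irs2 stretch is chr8:11008930-11009179 and the Irs1 stretch is chr1:82291440-82291689. Both RefSeq starts lie upstream of the gene starts given above (11008458 for Irs2 and 82291416 for Irs1), by more for Irs2. Distances below are from the RefSeq starts only. The Irs2 stretch also lies within the opposite-strand gene 9530052E02Rik (11007850 to 11054541). Capitals mark TGTTTTG, the reverse complement of CAAAACA, a motif known as an insulin response element that FOXO proteins can bind.
Irs2: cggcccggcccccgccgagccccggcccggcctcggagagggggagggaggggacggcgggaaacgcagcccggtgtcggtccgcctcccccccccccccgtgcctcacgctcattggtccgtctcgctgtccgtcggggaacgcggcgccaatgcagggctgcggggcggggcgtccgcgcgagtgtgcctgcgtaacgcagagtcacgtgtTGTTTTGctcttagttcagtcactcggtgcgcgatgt
Irs1: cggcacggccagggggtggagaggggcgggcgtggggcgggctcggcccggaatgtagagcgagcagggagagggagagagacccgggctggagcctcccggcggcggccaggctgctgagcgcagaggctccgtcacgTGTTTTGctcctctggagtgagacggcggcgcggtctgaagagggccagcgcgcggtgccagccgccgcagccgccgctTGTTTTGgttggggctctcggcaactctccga
The Irs2 stretch holds 1 match, beginning 37 bases before the RefSeq start, and the Irs1 stretch holds 2 matches, beginning 111 and 32 bases before it. In both, the motif CACGTG, searched after the sequences had been seen, lies beside a match: it ends 1 base before the match in Irs2 and overlaps the match by its last bases in Irs1. Both strands of the full 300-base windows were searched for 9 of the 10 genes (15 windows; Insr was not matched). CAAAACA was found in windows of Irs1 and Irs2 and in 6.28% of all 32851 windows, and CACGTG in windows of the same genes and in 7.15% of all windows. GTAAACA, the FOXO binding element, was found in 1 window, of Akt1, and in 3.65% of all windows. These matches are a description of letters and do not show binding.

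Insr encodes the receptor (ENSMUSG00000005534, chromosome 8, 3122061 to 3279617). It had 6.62, 6.63 and 6.58 FPKM in knockout replicates 1, 2 and 3, against 9.72, 8.59 and 5.55 FPKM in wild type replicates 1, 2 and 3. The knockout libraries were nearly equal, and wild type replicate 3 lay below them while the other wild type libraries lay above. The log2 change was -0.20 (SE 0.18, 95% interval -0.62 to 0.21, adjusted p 0.602 in limma). Without wild type replicate 3 it was -0.41 with an adjusted p of 0.0848, and without wild type replicate 1 it was -0.06. The call was absent in all 13 alternative settings.

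Grb14 encodes an adaptor that binds the active receptor and inhibits its kinase (ENSMUSG00000026888, chromosome 2, 64912476 to 65024987). Its values were 46.7, 47.0 and 52.3 FPKM in knockout replicates 1, 2 and 3, against 40.7, 38.5 and 35.6 FPKM in wild type replicates 1, 2 and 3. Every knockout library was above every wild type library. Means were 48.6 ± 3.15 FPKM in knockout and 38.3 ± 2.58 FPKM in wild type (SD, n = 3 each), with a log2 change of 0.34 (SE 0.11, 95% interval 0.08 to 0.60). The adjusted p of Grb14 in limma was 0.165, and 0.0977 to 0.424 over 13 alternative settings.

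PI3K is a dimer of a regulatory and a catalytic subunit. Pik3r1, the gene of the main regulatory subunits (ENSMUSG00000041417, chromosome 13, 101680563 to 101768217), had 4.38, 4.80 and 3.97 FPKM in knockout replicates 1, 2 and 3, against 7.07, 5.64 and 4.80 FPKM in wild type replicates 1, 2 and 3. The groups did not overlap, but knockout replicate 2 and wild type replicate 3 were only 0.0023 FPKM apart. The log2 change of Pik3r1 was -0.33 (SE 0.14, 95% interval -0.66 to -0.01), with an adjusted p of 0.259 in limma. The gene has 7 annotated transcripts, and the table does not separate those of its different regulatory subunits. Pik3ca, the gene of the catalytic subunit p110 alpha (ENSMUSG00000027665, chromosome 3, 32397671 to 32468486), had 4.50, 3.66 and 4.23 FPKM in knockout replicates 1, 2 and 3, against 4.44, 4.25 and 3.20 FPKM in wild type replicates 1, 2 and 3. Its groups overlapped, with a log2 change of 0.05 (95% interval -0.26 to 0.36, adjusted p 0.884 in limma), and without wild type replicate 3 the sign turned (-0.06).

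Pdpk1 encodes PDK1, the kinase that phosphorylates AKT in its activation loop (ENSMUSG00000024122, chromosome 17, 24073680 to 24150924). It had 2.68, 2.66 and 2.58 FPKM in knockout replicates 1, 2 and 3, against 2.71, 2.70 and 1.89 FPKM in wild type replicates 1, 2 and 3. Apart from wild type replicate 3 the 6 libraries were nearly level. The log2 change was 0.09 (95% interval -0.20 to 0.38, adjusted p 0.754 in limma), and -0.03 without wild type replicate 3.

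Akt1 and Akt2 encode the AKT kinases found in liver, of which AKT2 is the form most tied to glucose and lipid metabolism. Akt1 (ENSMUSG00000001729, chromosome 12, 112653821 to 112674884) had 14.6, 15.5 and 19.7 FPKM in knockout replicates 1, 2 and 3, against 11, 12.7 and 11.9 FPKM in wild type replicates 1, 2 and 3. Each knockout library was above each wild type library, and knockout replicate 3 was the highest. The log2 change of Akt1 was 0.44 (SE 0.13, 95% interval 0.13 to 0.76), and its adjusted p in limma was 0.140, and 0.0639 to 0.332 over 13 alternative settings. Akt2 (ENSMUSG00000004056, chromosome 7, 27591552 to 27640826) had 24.8, 26.2 and 33.0 FPKM in knockout replicates 1, 2 and 3, against 21.8, 24.1 and 26.0 FPKM in wild type replicates 1, 2 and 3. Its groups overlapped, and knockout replicate 3 was again the highest. For Akt2 the log2 change was 0.21 (95% interval -0.12 to 0.53, adjusted p 0.481 in limma), and it was 0.09 without knockout replicate 3.

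Foxo3 encodes a transcription factor that AKT excludes from the nucleus (ENSMUSG00000048756, chromosome 10, 42181841 to 42276755). It had 3.68, 4.26 and 3.58 FPKM in knockout replicates 1, 2 and 3, against 5.78, 4.67 and 5.02 FPKM in wild type replicates 1, 2 and 3. Every knockout library was below every wild type library. Means were 3.84 ± 0.365 FPKM in knockout and 5.16 ± 0.567 FPKM in wild type (SD, n = 3 each), with a log2 change of -0.35 (SE 0.11, 95% interval -0.61 to -0.08, adjusted p 0.163 in limma). Of 9 tested genes linked to FOXO3, 0 were called; 2 of them were higher and 1 was lower by the unadjusted p (22.2% and 11.1%, against 8.65% and 10% of all tested genes). The autophagy genes Ulk1 and Atg14 had the smallest p-values among them, with 12.9 ± 0.573 FPKM in knockout and 10.1 ± 0.193 FPKM in wild type for Ulk1, and 5.51 ± 0.150 FPKM in knockout and 4.31 ± 0.0713 FPKM in wild type for Atg14 (SD, n = 3 each).

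**Figure D2:**
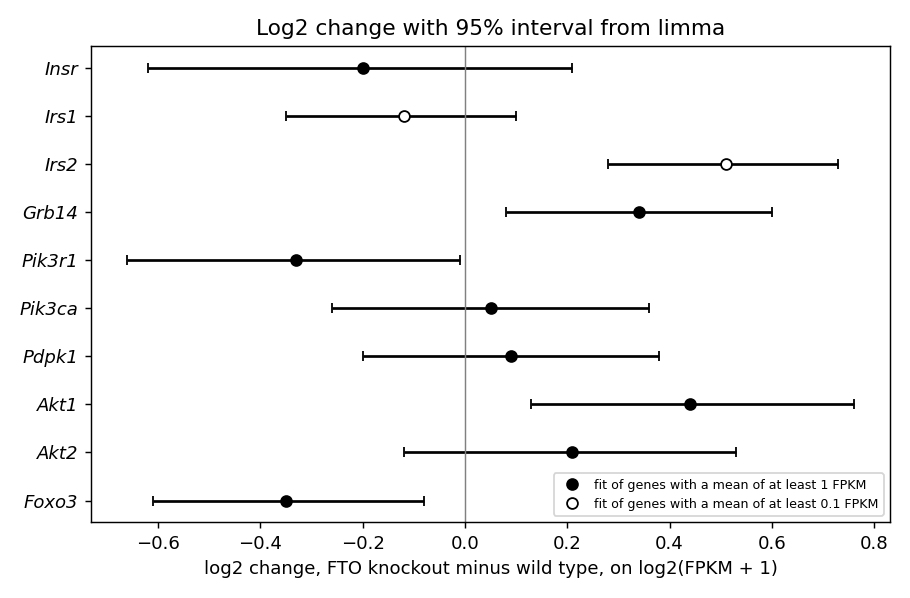
Log2 change on log2(FPKM + 1), FTO knockout minus wild type (horizontal axis), with the 95% interval from limma; filled points come from the fit with a minimum of 1 FPKM and open points from the fit with a minimum of 0.1 FPKM. The intervals of Irs2, Grb14, Akt1, Pik3r1 and Foxo3 do not reach 0, and those of the other 5 genes do.

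The spread within groups differed among these genes. Relative to the mean, 8 of the 10 varied more in wild type than in knockout, as did 55.4% of all tested genes. Akt1 and Akt2 varied more in knockout. The SD of Insr was 0.365% of the mean in knockout and 27.1% in wild type, and that of Irs1 was 7.77% in knockout and 49.7% in wild type. Wild type replicate 3 had the lowest wild type value for 7 of the 10 genes (Insr, Irs1, Irs2, Grb14, Pik3r1, Pik3ca and Pdpk1), and for 35.1% of all tested genes. It was the lowest of all 6 libraries for 6 of the 10, all of these but Pik3r1, and for 19.9% of all tested genes. Removing a transcript length trend in each library left the direction of each of the 8 tested genes as it was and called 0 of them.

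Ratios of genes within a library do not depend on how the library was scaled. Irs2 over Irs1 was 5.27, 4.47 and 4.78 in knockout replicates 1, 2 and 3, against 1.42, 1.14 and 2.06 in wild type replicates 1, 2 and 3, so Irs2 had the higher level per length in all 6 libraries and by more in knockout; the overlap with Gm9747 bears on this ratio. Irs2 over Insr was 0.165, 0.161 and 0.172 in knockout replicates 1, 2 and 3, against 0.0645, 0.0597 and 0.0545 in wild type replicates 1, 2 and 3. Here wild type replicate 3 lay with its group, and the ratio differed by 1.48 on the log2 scale. With 1 added to both FPKM values, which weighs on low genes, the log2 difference was 0.71 for Irs2 over Insr, and 0.63 in place of 1.69 for Irs2 over Irs1.

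Grb14 over Insr averaged 7.36 ± 0.502 in knockout and 5.03 ± 1.20 in wild type, and Pik3r1 over Pik3ca averaged 1.07 ± 0.205 in knockout and 1.47 ± 0.133 in wild type (SD, n = 3 each). For Grb14 over Insr, wild type replicates 1, 2 and 3 were at 4.19, 4.49 and 6.41, and the knockout libraries at 7.05 to 7.94. For Pik3r1 over Pik3ca, knockout replicate 2 (1.31) lay close to wild type replicate 2 (1.33). The longest annotated transcripts of Grb14 and Insr have 2797 and 9355 bases, and no length trend was removed from the ratios. Akt2 over Akt1 was 1.70, 1.69 and 1.68 in knockout replicates 1, 2 and 3, against 1.98, 1.89 and 2.19 in wild type replicates 1, 2 and 3, a narrow range in knockout below all wild type values. For each of the 5 ratios the groups did not overlap. Each had a two-sided exact permutation p of 0.1, the smallest that 3 against 3 libraries allow, and 0.1 after adjustment over the 5, so none of them could pass 0.05.

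**Figure D3:**
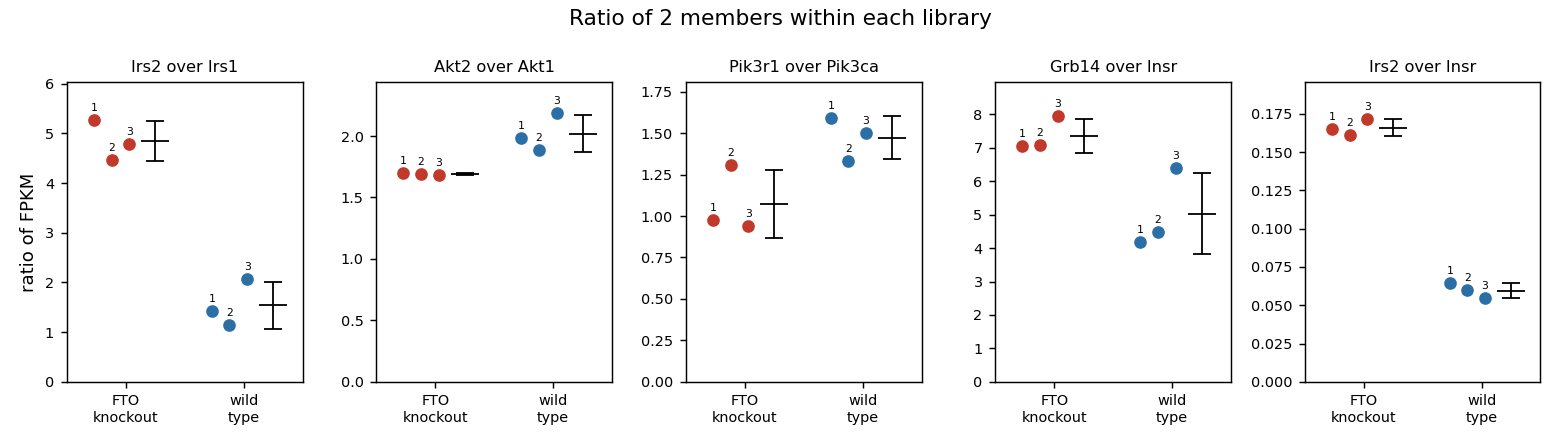
Ratio of the FPKM of 2 genes within each library (vertical axes, linear, from 0) for FTO knockout and wild type; numbered points are replicates, and the bar beside them gives the mean and SD of 3 libraries. Irs2 over Insr is 0.161 to 0.172 in knockout and 0.0545 to 0.0645 in wild type, and Akt2 over Akt1 is 1.68 to 1.70 in knockout and 1.89 to 2.19 in wild type.

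The other genes of the pathway were described by 8 lists of roles, with 127 genes, of which 126 were in the table and 102 were tested. Of these 102, 1 was higher (Ahsg), 3 were lower (Pik3c2g, Insig2 and Cdkn1a) and 98 were not called, against 1.11% higher and 1.65% lower among all tested genes. By the unadjusted p (under 0.05), 10 were higher and 10 were lower, in all 19.6% of the 102 against 18.7% of all tested genes. The groups did not overlap for 27 of the 102 (26.5%), against 24.5% of all tested genes. Both shares were near those of all tested genes, among which 8.65% were higher and 10% lower by the unadjusted p. The median log2 change over the 102 was -0.03, against 0.00 over all tested genes. Without knockout replicates 1 or 2 or wild type replicate 2, 1 of these genes was called, without knockout replicate 3, 0 were, and without wild type replicate 3, 7 were.

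Among the genes of receptors and adaptors, 9 of 15 were tested and 0 were called, with 0 at an unadjusted p under 0.05 in either direction. The smallest p-values were those of the adaptor gene Crkl, with 3.09 ± 0.247 FPKM in knockout and 2.69 ± 0.257 FPKM in wild type, and of the docking protein gene Gab1, with 1.1 ± 0.0921 FPKM in knockout and 1.27 ± 0.215 FPKM in wild type (SD, n = 3 each). Igf1r, the gene of the related IGF1 receptor, was chosen after its values were seen, and averaged 0.0360 FPKM in knockout and 0.0312 FPKM in wild type.

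Of the 11 tested genes listed as brakes on the receptor, limma called 1 as higher, 0 as lower and left 10 uncalled. The list is broad, and not all of its genes restrain the receptor or its substrates. The unadjusted p was under 0.05 for 4 of them, each with a higher level in knockout (36.4%, against 8.65% of all tested genes), and the median log2 change was 0.12. In either direction the share was also 36.4%, against 18.7% of all tested genes. The called share was 9.09%, which is 1 gene, against 1.11% of all tested genes called as higher. Ahsg, which encodes the plasma protein fetuin-A, a binder of the receptor, rose to 4219, 4652 and 4774 FPKM in knockout replicates 1, 2 and 3, against 2897, 2868 and 2958 FPKM in wild type replicates 1, 2 and 3. The groups stood well apart, with a log2 change of 0.64 (SE 0.13, adjusted p 0.0425 in limma). The call of Ahsg was lost without any 1 of the 3 knockout libraries or wild type replicates 1 or 2 (adjusted p 0.0944 to 0.206), and with no filter on low values (0.155), a minimum of 0.1 FPKM (0.0716), quantile normalization (0.0933) and robust empirical Bayes (0.0511). Socs3, which encodes a feedback inhibitor induced by cytokines that also acts on IRS proteins, had 5.15, 3.26 and 4.82 FPKM in knockout replicates 1, 2 and 3, against 2.53, 1.51 and 1.13 FPKM in wild type replicates 1, 2 and 3. These groups did not overlap, and the adjusted p of Socs3 was 0.0560 in limma for a log2 change of 1.0; it was called with robust empirical Bayes (0.0459) and without wild type replicate 1 (0.0217). Grb7, a relative of Grb14, had 32.5 ± 1.79 FPKM in knockout and 24.4 ± 0.384 FPKM in wild type (SD, n = 3 each; adjusted p 0.0901 in limma).

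**Figure D4:**
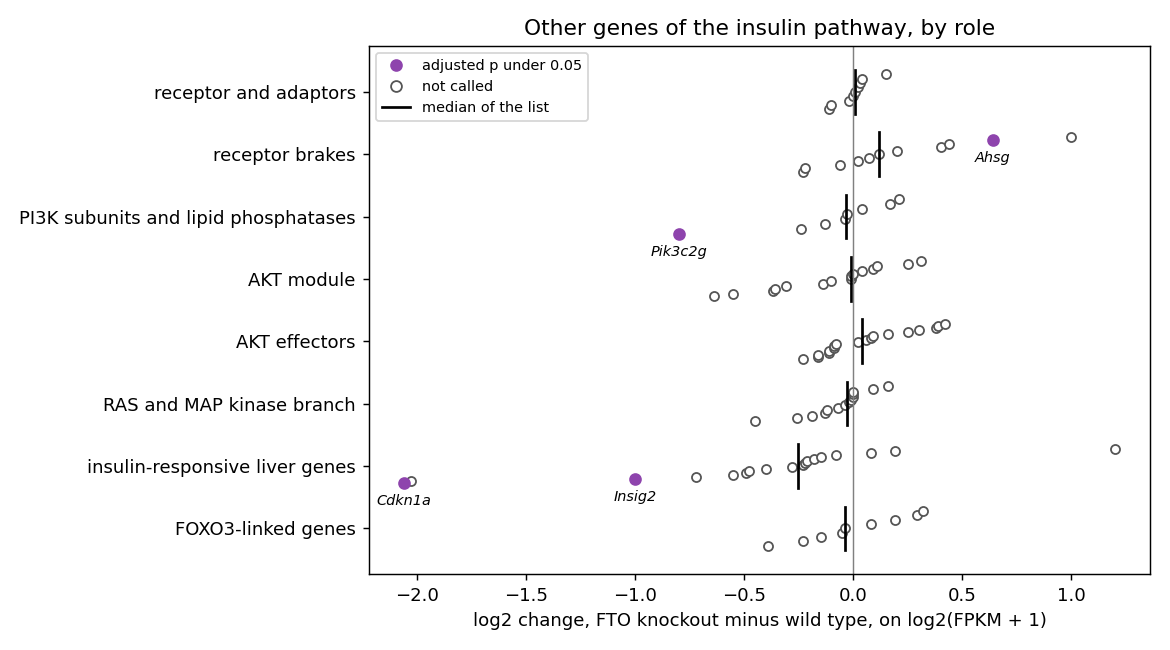
Log2 change on log2(FPKM + 1), FTO knockout minus wild type (horizontal axis), of the 102 tested genes in 8 lists of roles; filled points have an adjusted p under 0.05 in limma, open points do not, and black bars are list medians. The called genes are Ahsg to the right of 0 and Pik3c2g, Insig2 and Cdkn1a to the left.

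Among 8 tested genes of other PI3K subunits and lipid phosphatases, limma called 1 as lower, 0 as higher and left 7 uncalled, with a median log2 change of -0.03. The called share was 12.5%, which is 1 gene, against 1.65% of all tested genes called as lower. By the unadjusted p, 12.5% were under 0.05 in either direction, against 18.7% of all tested genes. Pik3c2g, which encodes a class II PI3K found mainly in liver, fell to 0.418, 0.703 and 0.547 FPKM in knockout replicates 1, 2 and 3, against 1.23, 1.84 and 2.14 FPKM in wild type replicates 1, 2 and 3. Each knockout value lay below each wild type value, with a log2 change of -0.80 (SE 0.15, adjusted p 0.0385 in limma). Because most of its values are near or below 1 FPKM, the pseudocount matters: with 0.1 the log2 change was -1.47 (adjusted p 0.0402). The call was lost without any 1 of the 3 knockout libraries or wild type replicate 2 (adjusted p 0.0671 to 0.142) and with no filter on low values (0.0791). Pik3cb, another class I catalytic subunit gene, had 2.18 ± 0.242 FPKM in knockout and 2.75 ± 0.239 FPKM in wild type, and the phosphatase gene Inppl1 had 4.76 ± 0.580 FPKM in knockout and 3.95 ± 0.0969 FPKM in wild type (SD, n = 3 each); neither was called. Pik3cd and Inpp5d, chosen after their values were seen and best known from blood cells, were under the minimum, at 0.700 ± 0.189 FPKM in knockout and 0.385 ± 0.127 FPKM in wild type for Pik3cd and 0.944 ± 0.238 FPKM in knockout and 0.576 ± 0.391 FPKM in wild type for Inpp5d. The groups overlapped for both genes. Pik3cg of the same list, also chosen after its values were seen, averaged 0.0589 FPKM in knockout and 0.0519 FPKM in wild type. All 9 Kupffer cell markers had higher means in knockout, but only 2 of the 5 lymphocyte markers present did. The part of these cell types in the values was not tested.

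Of 15 tested genes of the AKT module (partner kinases, the mTORC2 complex, phosphatases and Tribbles proteins), 0 were called, and 4 had an unadjusted p under 0.05, each with a lower level in knockout (26.7%, against 10% of all tested genes). In either direction the share was also 26.7%, against 18.7% of all tested genes. The groups did not overlap for 26.7% of the 15, near the 24.5% of all tested genes. Sgk2, a kinase gene related to AKT, had 14.7, 15.7 and 18.3 FPKM in knockout replicates 1, 2 and 3, against 27.5, 27.8 and 22.4 FPKM in wild type replicates 1, 2 and 3. The groups did not overlap, and the log2 change of -0.64 had an adjusted p of 0.0517 in limma. Sgk2 was called in 4 of 13 alternative settings, with size factors (0.046), robust empirical Bayes (0.0449), a length trend removed (0.0344) and without wild type replicate 3 (0.0299). Mtor, the kinase gene shared by both mTOR complexes, had 3.71 ± 0.565 FPKM in knockout and 5.03 ± 0.367 FPKM in wild type (SD, n = 3 each; adjusted p 0.164 in limma).

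Of 18 tested genes downstream of AKT, 0 were called, and 3 had an unadjusted p under 0.05, each with a higher level in knockout (16.7%, against 8.65% of all tested genes). In either direction the share was also 16.7%, near the 18.7% of all tested genes. The groups did not overlap for 3 genes that were higher and for 2 that were lower. Together these were 27.8% of the 18, near the 24.5% of all tested genes. The 2 lower ones were Rptor and Gsk3b, which were chosen after their values were seen. Akt1s1, which encodes the mTORC1 inhibitor PRAS40, had 27.4 ± 1.62 FPKM in knockout and 20.3 ± 1.63 FPKM in wild type (SD, n = 3 each; adjusted p 0.103 in limma); it was called with quantile normalization (0.0494) and with a length trend removed (0.0473). Rps6, the ribosomal protein whose phosphorylation reports mTORC1 activity, had 679 ± 41.0 FPKM in knockout and 523 ± 61.3 FPKM in wild type. The median level of ribosomal protein genes was higher in every knockout library than in wild type replicates 1 and 2, and highest in wild type replicate 3 (8.81 to 8.91 in knockout and 8.33, 8.43 and 8.98 in wild type on the log2(FPKM + 1) scale), and its part in the level of Rps6 was not tested. In the RAS and MAP kinase branch, 0 of 14 tested genes were called and 0 had an unadjusted p under 0.05. Its smallest p-values were those of the inhibitor genes Spred1, with 1.66 ± 0.271 FPKM in knockout and 2.19 ± 0.429 FPKM in wild type, and Dusp6, with 8.79 ± 3.68 FPKM in knockout and 12 ± 2.82 FPKM in wild type.

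Of 18 tested liver genes that respond to insulin or to FOXO proteins, limma called 0 as higher, 2 as lower and left 16 uncalled. The share called as lower was 11.1%, which is 2 genes, against 1.65% of all tested genes. The unadjusted p was under 0.05 for 1 with a higher and 4 with a lower level in knockout (5.56% and 22.2%, against 8.65% and 10% of all tested genes). Log2 changes were below 0 for 15 of the 18, against 5229 of all 10405 tested genes. The median of the 18 was -0.26, against 0.00 over all tested genes. The list mixes genes that insulin raises with genes that it lowers, so a common direction has no single reading. Insig2, whose protein retains the sterol sensor of lipid synthesis and which insulin lowers in liver, fell to 165, 134 and 188 FPKM in knockout replicates 1, 2 and 3, against 276, 365 and 335 FPKM in wild type replicates 1, 2 and 3. The groups did not overlap (log2 change -1.0, SE 0.17, adjusted p 0.0265 in limma); the call was lost without any 1 of the 3 knockout libraries or wild type replicate 2 (0.0684 to 0.115) and with no filter on low values (0.0638). Cdkn1a, a cell cycle inhibitor gene under p53 that FOXO proteins can also activate, fell to 0.462, 0.276 and 0.584 FPKM in knockout replicates 1, 2 and 3, against 2.85, 5.69 and 7.33 FPKM in wild type replicates 1, 2 and 3. Its log2 change was -2.06 (SE 0.26, adjusted p 0.00836 in limma), and the adjusted p was 0.0525 without knockout replicate 3. Bcl6, a repressor gene, had 13.7, 20.6 and 19.1 FPKM in knockout replicates 1, 2 and 3, against 9.06, 9.56 and 3.95 FPKM in wild type replicates 1, 2 and 3, without overlap (adjusted p 0.0827 in limma). The gluconeogenic gene G6pc had overlapping groups (adjusted p 0.161 in limma).

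**Figure D5:**
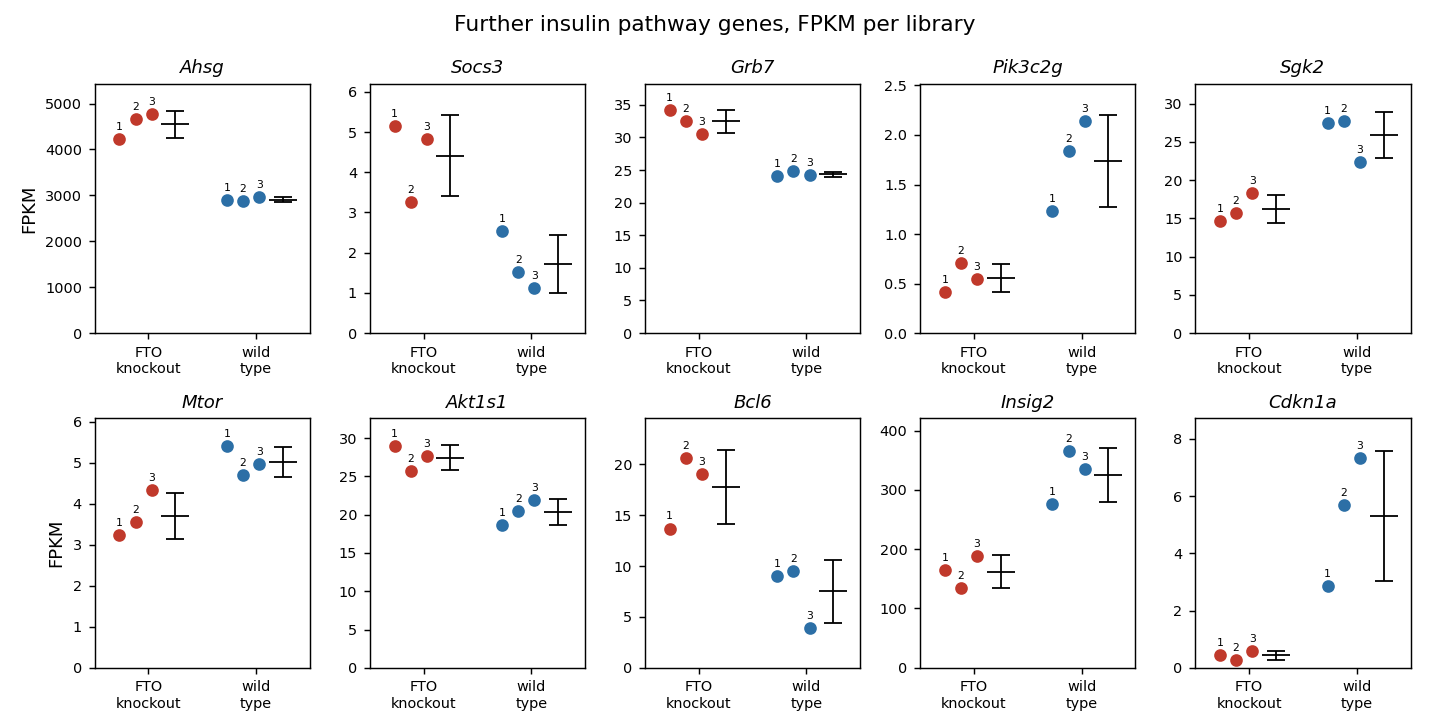
FPKM (vertical axes, linear, from 0) of 10 further insulin pathway genes in FTO knockout and wild type libraries; numbered points are replicates, and the bar beside them gives the mean and SD of 3 libraries. These were picked from the genes with small p-values, and the groups overlap for none of them. Other genes with small p-values are not shown, among them G6pc, whose groups overlap. Ahsg, Pik3c2g, Insig2 and Cdkn1a are those called by limma.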

How the data were processed

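The authors deposited one table of FPKM under Ensembl identifiers for 6 libraries; that unit is inferred from the numbers themselves and per the submitters' processing notes, which name TopHat2 2.1.0, HTSeq, Cufflinks 2.2.1 and mm10 without roles. The annotation release and the use of strand are not given in the sources used here. GENCODE M21 (on GRCm38, the same assembly as mm10) gave positions and symbols for 24807 of 25690 rows, and promoters came from RefSeq (GRCm38.p6). Groups follow the genotype label, and replicate numbers follow sample order and pair no libraries.

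Limma 3.58.1 in R 4.3.3 (trended empirical Bayes, two-sided) was fitted to log2(FPKM + 1) for genes whose 6-library mean reached 1 FPKM, with Benjamini-Hochberg adjustment over all of them and a threshold of 0.05. The pseudocount shrinks the log2 changes of low genes, while a fold is the ratio of the group means. Ratios of 2 genes were tested with exact permutation tests. The scripts were tested on simulated data. Depth was inferred from the FPKM of single fragments in 964 single-transcript genes (3000 to 8000 bases), keeping values between 25000000 and 50000000 (49 to 60 a library), and fragment numbers are approximate. The median of the kept values was taken, so the range set beforehand limits each depth.

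The members and lists were chosen with earlier results of these data known. Named genes are the members, Fto, and per list every called gene and the 2 others with the smallest p; others are said to be chosen later. Alternatives were robust empirical Bayes, quantile normalization, median ratio size factors, other minimum levels and pseudocounts, removal of a length trend, and leaving out each library.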

Additional observations from a re-analysis of the deposited data

How the results depend on the processing

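With 1 of the 6 libraries left out, 77 to 475 genes were called in the whole table, against 287 with all of them, and 0 to 7 of the insulin pathway genes, against 4. With no filter on low values 180 genes in all and 1 pathway gene were called, and with a length trend removed 506 genes in all. Of the members, 1 (Irs2) was called with a minimum of 0.1 FPKM and 0 under the other settings run for the count. Most of those settings kept the minimum of 1 FPKM, so they did not test Irs1 and Irs2 and could not call them. Outside that count, Irs2 was also called with a minimum of 0.1 FPKM without wild type replicate 1 (adjusted p 0.0412 in limma). With 1 library left out the log2 change was -0.03 to 0.15 for Pdpk1 and -0.06 to 0.12 for Pik3ca, below 0 without wild type replicate 3; the cause was not tested. The other 8 members kept their direction in every setting that tested them, as did the 5 ratios in the settings run for them. The combination of a minimum of 0.1 FPKM with a pseudocount of 0.1 or with a library left out was chosen after seeing the data. With 3 libraries a group, precision is low for Irs1 and Irs2, which rest on few fragments. No paired analysis was possible because the labels give no replicate numbers shared between the groups.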
